A study of Mus musculus with 21 samples.

Results

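S100 proteins are small calcium-binding proteins of the EF-hand type, most of which work as dimers inside the cell. The genes described here are 9 members of this family, S100a3, S100a4, S100a6, S100a8, S100a9, S100a10, S100a11, S100a14 and S100a16, found by their names among the 23713 genes of the deposited count table. All 9 had a row, and all 9 had enough counts to be tested in every comparison. S100a8 and S100a9 pair to form calprotectin, which binds zinc and manganese and is released by neutrophils, monocytes and stressed keratinocytes. Outside the cell it acts as an alarmin, a molecule that signals damage through the receptors Tlr4 and Ager. In resting epidermis these 2 genes are usually low, while S100a14 and S100a16 are typical of epithelia.

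RNA was measured by bulk sequencing of keratinocytes, the cells of the epidermis, isolated from mouse tail skin. Basal cell carcinoma (BCC), a skin tumour driven by Hedgehog signalling, was modelled in mice named SmoM2 (an activated form of the Hedgehog signal transducer Smoothened), Gnas-eKO (loss of Gnas, the G protein subunit that raises cAMP) and PKI (which names a protein kinase A inhibitor, in a construct that the labels do not describe). Each model had 4 BCC libraries and 3 libraries of tumour-free controls (Con), 21 in all, and its cells were collected 29 days (SmoM2), 42 days (Gnas-eKO) or 57 days (PKI) after induction. The promoters that drive the alleles, the genotype of the Con mice and the ages are not given in the sources used here. Each model was its own batch, so model, batch and day cannot be told apart, and levels were compared between BCC and Con within a model. In the file headers the codes of the SmoM2 BCC libraries carry another letter prefix (BF) than those of the SmoM2 Con libraries (TJ). What the prefixes stand for is not given, so in SmoM2 the tumour cannot be told apart from it. Con and BCC share a prefix in the other 2 models.

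Library totals ranged from 16645858 to 22251132 counts, and levels are given as CPM, counts scaled to a common library size with TMM factors. The summed level of 6 keratinocyte markers (Krt5, Krt14, Krt1, Krt10, Krt15 and Trp63) was 25328 to 68905 CPM in every library. On the first principal component of log2 CPM, Gnas-eKO BCC replicate 2 lay at −20.6, between the 9 Con libraries (−57.0 to −40.2) and the 11 other BCC libraries (32.1 to 60.0). In bulk samples, fewer cells of a type and less RNA per cell cannot be told apart.

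All 9 genes lie on mouse chromosome 3 (build GRCm38) and are protein-coding. S100a14, S100a16, S100a3, S100a4, S100a6, S100a8 and S100a9 follow each other between position 90526856, where S100a14 starts, and 90695721, where S100a9 ends, all on the plus strand except S100a9. S100a11 (93520488 to 93526287) and S100a10 (93555080 to 93564643) lie 2820 kb further on, 28.8 kb apart. S100a8 (90668978 to 90670035) and S100a9 (90692632 to 90695721) are neighbours 22.6 kb apart and are read from opposite strands. S100a3 overlaps S100a2 in the deposited positions, and it was the single member whose deposited bounds differed from the annotation (GENCODE M21), so its count and its level per length are uncertain. The S100a11 transcript matches a processed pseudogene on chromosome 4, Gm12854, with 98.99% identity over 297 bases, and that pseudogene held 31.5% as many counts as S100a11 over all libraries. The S100a4 transcript matches Gm42674 with 100% identity over 302 bases, a gene without a row in the count table, so which reads the S100a4 count holds is uncertain too.

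The promoters of S100a8 and S100a9 are shown because these genes moved most and moved together, and that of S100a11 because it was called in PKI and held the AP-1 motif in 2 places. RefSeq (GRCm38.p6) gave windows from 250 bases before to 50 after a start for 7 of the 9 members. S100a8 is shown at chr3:90668821-90669120 (plus strand), S100a9 at chr3:90695672-90695971 (minus strand) and S100a11 at chr3:93520246-93520545 (plus strand). Capitals mark matches to the motifs searched on both strands.
S100a8: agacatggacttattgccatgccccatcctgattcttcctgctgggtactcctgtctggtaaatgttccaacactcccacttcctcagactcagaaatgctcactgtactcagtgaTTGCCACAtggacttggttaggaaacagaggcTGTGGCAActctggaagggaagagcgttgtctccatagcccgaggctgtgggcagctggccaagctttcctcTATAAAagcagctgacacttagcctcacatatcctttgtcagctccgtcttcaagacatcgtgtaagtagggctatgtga
S100a9: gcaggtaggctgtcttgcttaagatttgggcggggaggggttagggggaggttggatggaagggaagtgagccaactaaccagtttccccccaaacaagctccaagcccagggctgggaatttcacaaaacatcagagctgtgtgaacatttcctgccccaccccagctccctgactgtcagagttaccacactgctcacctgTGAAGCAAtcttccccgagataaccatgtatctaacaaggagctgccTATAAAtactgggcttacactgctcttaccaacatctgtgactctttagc
S100a11: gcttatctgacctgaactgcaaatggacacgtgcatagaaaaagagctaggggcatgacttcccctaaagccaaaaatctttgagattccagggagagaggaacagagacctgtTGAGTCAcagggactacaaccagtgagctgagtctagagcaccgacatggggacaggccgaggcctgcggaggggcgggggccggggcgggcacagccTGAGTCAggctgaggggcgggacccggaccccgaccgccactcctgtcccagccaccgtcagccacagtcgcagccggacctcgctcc

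The capitals in S100a8 are 2 matches to a C/EBP motif (TGNNGCAA), at −134 on the opposite strand and at −102 from the RefSeq start, and a TATA box (TATAAA) at −30. S100a9 held 1 match to the C/EBP motif at −47 and TATAAA at the annotated start itself. S100a11 held the AP-1 motif (TGANTCA) at −136 and at −38. Of all 32851 promoter windows, 11.4% held the C/EBP motif, 13.6% held TATAAA and 7.81% held the AP-1 motif. Matches to the C/EBP motif were also present in a window of S100a3, to the AP-1 motif in one of S100a16, and to TATAAA in windows of S100a3 and S100a4. None of the member windows held the GLI motif GACCACCCA (0.253% of all windows), the cAMP response element TGACGTCA (1.79%), the STAT motif TTCNNNGAA (8.3%) or an NF-kB motif (1.63%). A match describes letters in these windows and no factor's binding was measured. RefSeq places the S100a8 start at 90669071, inside the deposited gene bounds.

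To compare genes, CPM was divided by the joined length of all annotated exons of a gene (511 bases for S100a11, 1727 for S100a14). The transcripts present may be shorter, so the order between genes depends on that length. In control epidermis, S100a11 had the highest mean level per exon length in each model, with 412 ± 115 CPM per kb in SmoM2 Con, 427 ± 68.7 in Gnas-eKO Con and 499 ± 47.9 in PKI Con (SD, n = 3 each). S100a14 came next (379 ± 42.1, 347 ± 19.7 and 383 ± 19.9 CPM per kb), followed by S100a16 (239 ± 20.4, 227 ± 14.7 and 229.8 ± 23.4) and S100a6 (186 ± 23.9, 170.2 ± 22.7 and 191 ± 10.6). S100a10 followed (146 ± 25.3, 138 ± 26.0 and 141 ± 22.9 CPM per kb) and then S100a4 (51.9 ± 18.5, 47.6 ± 7.30 and 49.1 ± 10.6). The ranges of S100a11 and S100a14 overlapped in SmoM2 Con and touched in Gnas-eKO Con, and those of S100a6 and S100a10 overlapped in SmoM2 and Gnas-eKO Con, so these neighbours in the order did not differ beyond their spread there. S100a4 also overlapped S100a9 and S100a8 in SmoM2 and Gnas-eKO Con, and S100a3 in SmoM2 Con. S100a8, S100a9 and S100a3 were the lowest 3 in every Con group, with group means from 2.76 to 49.8 CPM per kb. In BCC, S100a9 had the highest mean in all 3 models, at 636 ± 331, 744 ± 926 and 2063 ± 1392 CPM per kb (SD, n = 4), and S100a8 had rank 3 in SmoM2 and Gnas-eKO and rank 2 in PKI. The S100a9 libraries overlapped those of S100a11 in SmoM2 BCC (349 to 1111 against 442 to 651 CPM per kb) and in Gnas-eKO BCC (59.3 to 2082 against 311 to 616), so these ranks did not differ beyond the spread, while in PKI BCC they did not overlap (878 to 3786 against 602 to 747). S100a8, at 630.5 to 2267 CPM per kb in PKI BCC, overlapped both, so its rank there is not separated from theirs.

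**Figure D1:**
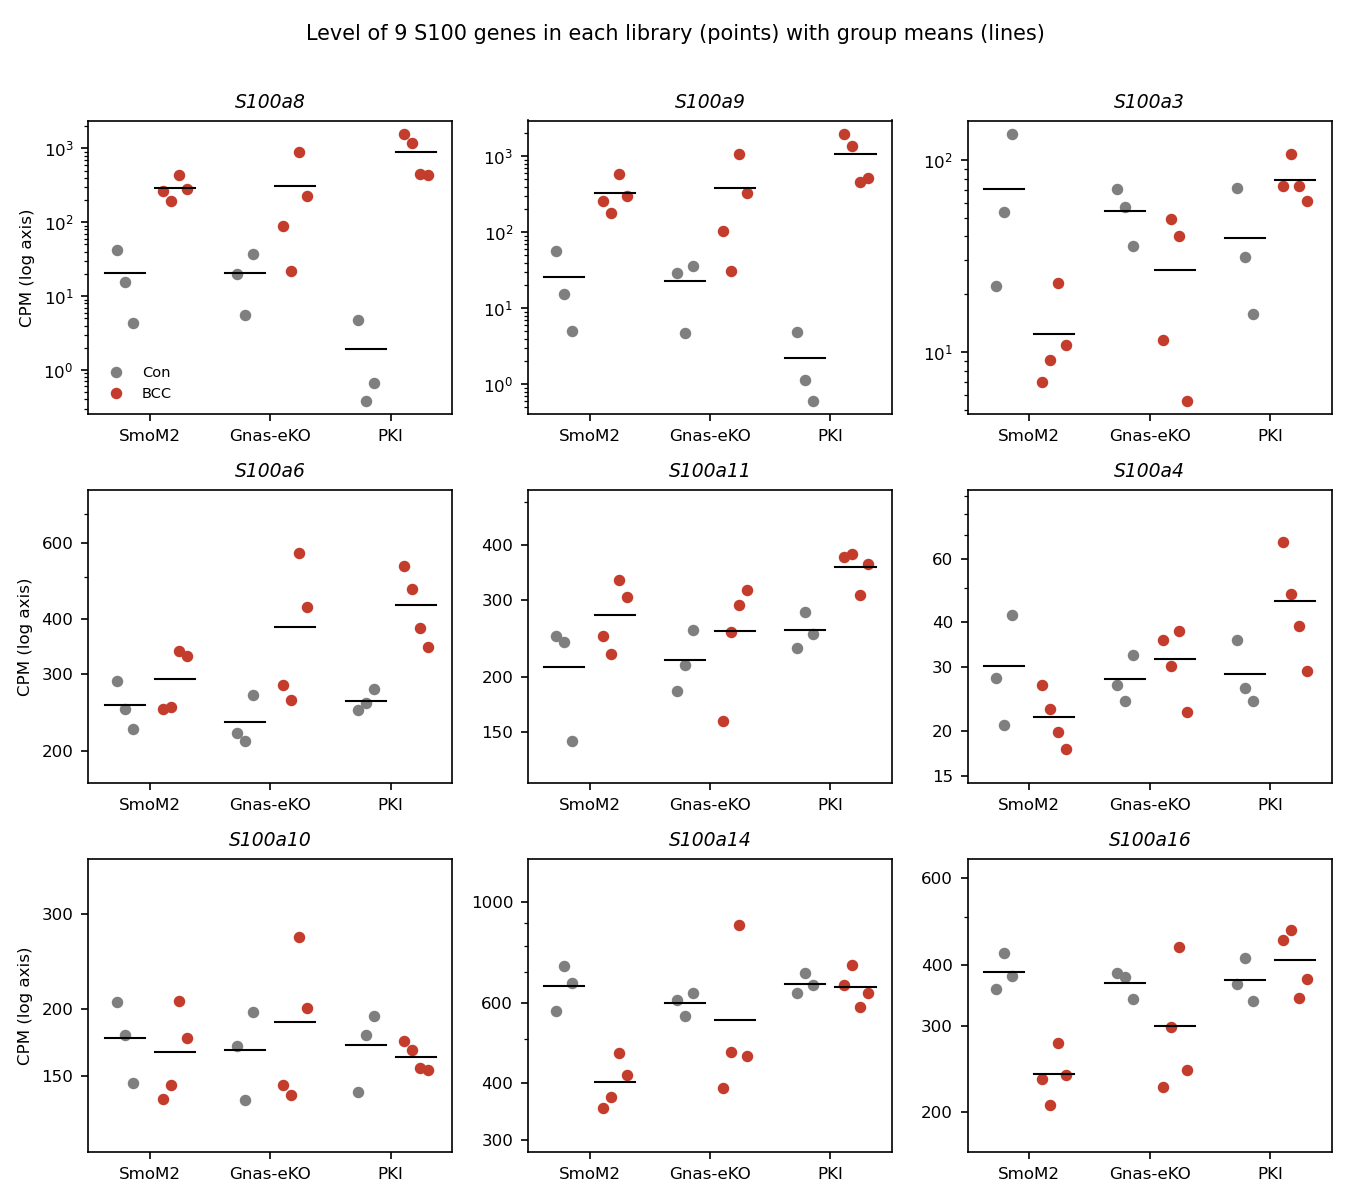
Level of each S100 gene in CPM (log axis) in the Con (grey) and BCC (red) libraries of 3 models. Each point is 1 library and each line is a group mean. S100a8 and S100a9 span over 9 Con libraries a 112-fold and a 95.3-fold range, and their PKI BCC libraries lie at 438 CPM or more.

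The stability of the 9 genes across the 9 control libraries differed widely. S100a16 varied 1.25-fold between its lowest and highest Con library, S100a14 1.28-fold, S100a6 1.38-fold, S100a10 1.53-fold, S100a11 1.97-fold and S100a4 2.02-fold. S100a3 varied 8.65-fold, S100a9 95.3-fold and S100a8 112-fold. These ranges pool 3 batches and days. Within a Con group, S100a8 varied 6.78- to 12.4-fold, S100a9 7.56- to 11.3-fold and S100a3 1.97- to 6.24-fold. Both calprotectin genes were lowest in PKI Con replicates 2 and 3 (S100a8 at 0.380 and 0.662 CPM, from 6 and 11 counts), where 3 counts correspond to 0.190 and 0.181 CPM.

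S100a8 and S100a9 were higher in BCC than in Con past the threshold in SmoM2 and in PKI. In SmoM2 Con, S100a8 had 42.3, 15.7 and 4.38 CPM in replicates 1 to 3, and in SmoM2 BCC 261, 197, 432 and 283 CPM in replicates 1 to 4. All 4 BCC libraries lay above all Con libraries, and the change was 3.82 on the log2 scale (SE 0.82, edgeR adjusted p 0.0199). S100a9 had 57.4, 15.5 and 5.08 CPM in SmoM2 Con and 262, 182, 580.2 and 304 CPM in SmoM2 BCC, again without overlap. Its log2 change (the log2 fold change between BCC and Con) was 3.68 (SE 0.96, edgeR adjusted p 0.0386). In both genes the Con libraries spread more, on a fold scale, than the BCC libraries. The S100a9 call was not firm, since it passed in only 1 of 7 fits that each left out 1 library, the one without Con replicate 1, with edgeR adjusted p of 0.0592 to 0.116 in the other 6, and it did not pass without the filter on low counts (edgeR adjusted p 0.0618). The S100a8 call was lost without Con replicate 2 (3.65, edgeR adjusted p 0.0730). Without Con replicate 1 the log2 changes were 4.89 for S100a8 and 5.03 for S100a9.

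In PKI, S100a8 had 4.70, 0.380 and 0.662 CPM in Con replicates 1 to 3 and 1573, 1169, 450.3 and 438 CPM in BCC replicates 1 to 4. S100a9 had 4.91, 1.14 and 0.602 CPM in PKI Con and 1977, 1356, 458 and 517 CPM in PKI BCC. The groups stood far apart in both genes, and BCC replicates 1 and 2 were higher than 3 and 4. Log2 fold changes were 8.82 for S100a8 (SE 1.13, edgeR adjusted p 0.00272) and 8.88 for S100a9 (SE 1.12, edgeR adjusted p 0.00254), and both passed in all 6 alternative fits of all libraries and in all 7 fits that left out 1 library. The size of these folds rests on PKI Con libraries that hold few counts: without Con replicate 1, the highest of them, the log2 changes were 10.75 and 10.28, and without each other library in turn they were 8.38 to 9.06 and 8.38 to 9.14.

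In Gnas-eKO the values of the calprotectin genes did not pass the threshold. S100a8 had 19.9, 5.49 and 37.2 CPM in Con replicates 1 to 3 and 89.6, 21.8, 884 and 224 CPM in BCC replicates 1 to 4. S100a9 had 29.1, 4.71 and 35.6 CPM in Con and 103, 30.9, 1087 and 333 CPM in BCC. In both genes BCC replicates 1, 3 and 4 lay above all Con libraries and BCC replicate 2, the library that stood apart from the other BCC libraries, lay among Con. Log2 fold changes were 3.89 for S100a8 (SE 1.32, edgeR adjusted p 0.170) and 4.09 for S100a9 (SE 1.33, edgeR adjusted p 0.156). Without BCC replicate 2 both passed, at 4.28 (edgeR adjusted p 0.0319) and 4.47 (edgeR adjusted p 0.0293), and both also passed with the DESeq2 Wald test and in a joint fit of all 21 libraries. Without BCC replicate 3, the highest library, the values were 2.44 (edgeR adjusted p 0.217) and 2.77 (edgeR adjusted p 0.199), and over the 7 fits that left out 1 library the edgeR adjusted p reached 0.424 for S100a8 and 0.373 for S100a9.

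S100a8 and S100a9 followed each other from library to library. The ratio of S100a9 to S100a8 counts was 0.924 to 1.49 over the 12 BCC libraries, with a median of 1.17, although the level of S100a8 itself spanned 21.8 to 1573 CPM there. Over the 9 Con libraries the ratio was 0.857 to 3, and the highest, in PKI Con replicate 2, rests on 18 counts against 6. Over the 21 libraries, log2 CPM of the 2 genes had a Pearson r of 0.995 and a Spearman rho of 0.984, a description in which the libraries share their group means and the 2 genes share the contrast between Con and BCC.

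**Figure D2:**
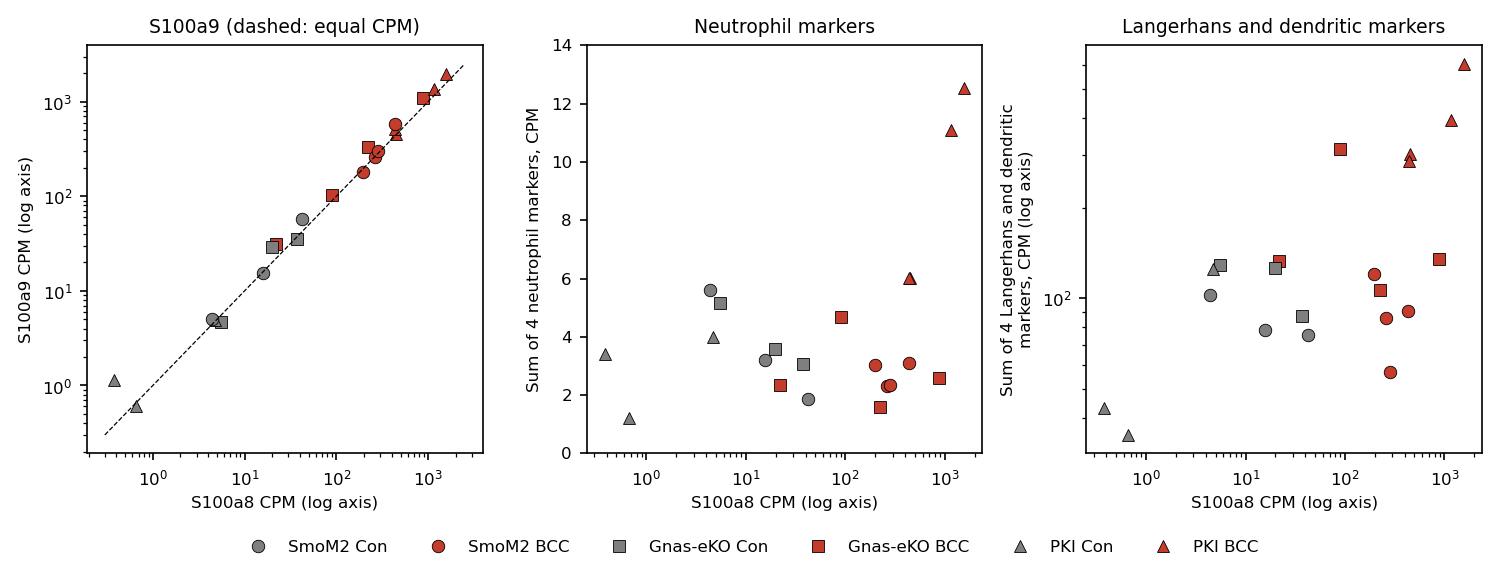
Left, S100a9 against S100a8 in CPM (both log axes), where the 21 libraries lie close to the line of equal CPM. Middle and right, the summed CPM of 4 neutrophil markers (linear axis) and of 4 Langerhans and dendritic markers (log axis) against S100a8, with Con in grey, BCC in red and 1 symbol per model. The PKI BCC libraries are highest in the neutrophil sum, at 6.03 to 12.5 CPM, while the SmoM2 and Gnas-eKO BCC libraries lie at 1.59 to 4.67 CPM.

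Because neutrophils and monocytes carry much S100a8 and S100a9, markers of these cells were read beside them. Of 10 listed neutrophil markers, Ly6g, Elane, Ngp, Ltf, Retnlg and Mmp8 have no row in the count table, whose lowest row sum is 10. The other 4 (Cxcr2, Csf3r, Mpo and Camp) summed to 1.20 to 5.62 CPM over the 9 Con libraries. SmoM2 BCC had 2.31 to 3.11 CPM, Gnas-eKO BCC 1.59 to 4.67 and PKI BCC 6.03 to 12.5. In PKI BCC most of the sum was Cxcr2, at 5.59 to 11.1 CPM, while Mpo, the neutrophil granule peroxidase, was at most 0.155 CPM, Camp at most 0.358 and Csf3r at most 1.02. Cxcr2, the one list member tested there and named with the other 3 after their values were seen, was higher in PKI (log2 change 1.91, edgeR adjusted p 0.00887). In SmoM2 BCC the neutrophil sum lay within the range of SmoM2 Con (1.88 to 5.62 CPM), and S100a8 was at 197 to 432 CPM.

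The 6 monocyte and macrophage markers (Ptprc, Itgam, Cd68, Adgre1, Csf1r and Lyz2) summed to 18.9 to 24.7 CPM in PKI Con and 49.3 to 77.2 CPM in PKI BCC, and 4 of 6 tested were higher there (edgeR), beside 18.7% of all genes. Lyz2 and Adgre1, at most 0.421 and 0.405 CPM in PKI Con, entered the test through their BCC libraries. The 4 Langerhans and dendritic markers (Cd207, Itgax, H2-Ab1 and Cd74) summed to 35.0 to 125 CPM in PKI Con and 288 to 605 CPM in PKI BCC, all 4 of them higher. In SmoM2 the corresponding sums were 21.3 to 29.2 and 16.8 to 21.8 CPM for macrophages, where Cd68 was called higher (1.32, edgeR adjusted p 0.00703) and Itgam lower (−1.56, edgeR adjusted p 0.00120), and 75.7 to 103 and 56.8 to 120.3 CPM for Langerhans cells, in Con and BCC. In Gnas-eKO BCC the library with the highest S100a8, replicate 3, had sums of 24.3 and 135 CPM, and the library with the highest sums, replicate 1 (39.3 and 314 CPM), had 89.6 CPM of S100a8. What part neutrophils and these cells have in the values of S100a8 and S100a9 was not tested in any of the models.

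S100a14 and S100a16, epithelial members of the family whose genes are neighbours, were lower in SmoM2 BCC. S100a14 had 577, 722 and 663 CPM in SmoM2 Con and 353, 374, 465 and 418 CPM in SmoM2 BCC. S100a16 had 357, 422 and 379 CPM in Con and 234, 207, 277 and 239 CPM in BCC. Every BCC library lay below every Con library in both genes. Log2 fold changes were −0.69 for S100a14 (SE 0.11, edgeR adjusted p 0.00124) and −0.68 for S100a16 (SE 0.10, edgeR adjusted p 0.000834), and both calls held in all 6 alternative fits of all libraries and all 7 fits that left out 1 library. The summed keratinocyte markers were lower in the same libraries, at 49008 to 65785 CPM in SmoM2 Con and 33192 to 48246 CPM in SmoM2 BCC without overlap, with 3 of 6 called lower (Krt5, Krt14 and Krt10) and 1 higher (Trp63), beside 13.5% and 16.2% of all genes. In Gnas-eKO, where neither S100a14 nor S100a16 was called, the sums were 50656 to 62322 CPM in Con and 25328 to 44443 CPM in BCC. They did not overlap there either, and 0 of 6 markers were called, beside 1.63% of all genes. What part the keratinocyte markers have in the S100a14 and S100a16 values was not tested.

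In PKI neither gene passed the threshold. S100a14 had 630.0, 698 and 656 CPM in PKI Con and 657, 727, 587 and 632 CPM in PKI BCC (log2 change −0.01, SE 0.09, edgeR adjusted p 0.947). S100a16 had 365, 412 and 337 CPM in Con and 449.7, 469.9, 342 and 374 CPM in BCC (0.15, SE 0.12, edgeR adjusted p 0.373). The groups overlapped in both. In Gnas-eKO, S100a14 had 608, 563 and 629 CPM in Con and 392, 468, 888 and 458 CPM in BCC, and S100a16 had 384, 377 and 339.9 CPM in Con and 226, 298, 434 and 244 CPM in BCC. In both genes 3 of 4 BCC libraries lay below all Con libraries and BCC replicate 3 lay above them. The log2 fold changes, −0.10 for S100a14 (edgeR adjusted p 0.879) and −0.27 for S100a16 (edgeR adjusted p 0.562), did not pass. Without BCC replicate 3 they were −0.43 (edgeR adjusted p 0.0649) and −0.50 (edgeR adjusted p 0.0711), and without BCC replicate 1 they were 0.04 and −0.15.

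S100a6, known as calcyclin, and S100a11, a partner of annexin A1, were higher in PKI BCC. S100a6 had 248, 258 and 276 CPM in PKI Con and 531, 469.5, 382 and 346 CPM in PKI BCC, a log2 change of 0.74 (SE 0.14, edgeR adjusted p 0.00453). S100a11 had 233, 282 and 251 CPM in PKI Con and 376, 382, 307 and 362 CPM in PKI BCC, a log2 change of 0.50 (SE 0.10, edgeR adjusted p 0.00549). No BCC library overlapped Con in either gene. With the counts of the near copies Gm12854 and Gm7665 added, an alternative chosen after seeing the data, the S100a11 value was 0.49 (edgeR adjusted p 0.00655). S100a11 did not pass in the joint fit of all 21 libraries (0.49, edgeR adjusted p 0.0882). In PKI 4 of 6 macrophage, 4 of 4 Langerhans and dendritic and 3 of 5 fibroblast markers were higher as well, beside 18.7% of all genes. Their part in the S100a6 and S100a11 values was not tested.

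In SmoM2, S100a6 had 289, 249 and 224 CPM in Con and 249, 252, 339 and 329 CPM in BCC (log2 change 0.22, edgeR adjusted p 0.277), and S100a11 had 248, 240.0 and 143 CPM in Con and 248, 226, 332 and 304 CPM in BCC (0.41, edgeR adjusted p 0.209, and 0.20 without Con replicate 3, the lowest). In Gnas-eKO, S100a6 had 220.0, 210.0 and 268 CPM in Con and 283, 261, 568 and 427 CPM in BCC (0.75, SE 0.28, edgeR adjusted p 0.190). S100a11 had 186, 212 and 256 CPM in Gnas-eKO Con and 159, 253, 292 and 315 CPM in BCC (0.24, edgeR adjusted p 0.619). BCC and Con overlapped in each of these 4 cases. The S100a6 value in Gnas-eKO was as large as in PKI with a larger error, since BCC replicates 3 and 4 lay well above replicates 1 and 2. Of the alternative fits it passed in the joint fit alone (0.74, edgeR adjusted p 0.0288).

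S100a3, a cysteine-rich member found in the cuticle of the hair shaft and modified there by the enzyme Padi3, passed the threshold in no model. It had 22.0, 53.7 and 137 CPM in SmoM2 Con and 6.98, 9.05, 22.8 and 10.9 CPM in SmoM2 BCC, so that 3 of 4 BCC libraries lay below Con. It had 70.3, 56.9 and 35.6 CPM in Gnas-eKO Con and 11.5, 49.0, 40.3 and 5.55 CPM in Gnas-eKO BCC. In PKI it had 71.2, 31.4 and 15.8 CPM in Con and 73.3, 108, 73.4 and 61.0 CPM in BCC, where 3 of 4 BCC libraries lay above Con. The log2 fold changes of S100a3 were −2.50 for SmoM2 (SE 0.74, edgeR adjusted p 0.0546), −1.01 for Gnas-eKO (SE 0.65, edgeR adjusted p 0.435) and 1.01 for PKI (SE 0.51, edgeR adjusted p 0.175). The DESeq2 Wald test (adjusted p 0.00304) and the joint fit (edgeR adjusted p 0.0183) called the SmoM2 value. Single control libraries decided the edgeR call: without SmoM2 Con replicate 1 the SmoM2 value passed (−2.93, edgeR adjusted p 0.0279), and without PKI Con replicate 1 the PKI value passed (1.75, edgeR adjusted p 0.0117). Without SmoM2 Con replicate 3 the SmoM2 value was −1.59 (edgeR adjusted p 0.132), and without PKI Con replicate 3 the PKI value was 0.64 (edgeR adjusted p 0.260).

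Hair shaft and cuticle markers were read beside S100a3. Of 9 listed (Padi3, Krt31, Krt32, Krt34, Krt35, Krt82, Krt85, Krt86 and Hoxc13), Krt85 has no row, and the other 8 summed to 139 to 245 CPM in SmoM2 Con and 60.1 to 122 CPM in SmoM2 BCC. The sums were 182 to 313 and 79.9 to 176 CPM in Gnas-eKO, in Con and BCC. In PKI the sums were 74.6 to 199.98 CPM in Con and 174 to 426 CPM in BCC, and the groups overlapped, with Con replicate 1 above BCC replicate 4. Called by edgeR were 2 lower of 8 in SmoM2 (Krt34 and Hoxc13), 0 of 8 in Gnas-eKO and 4 higher of 8 in PKI (Padi3, Krt32, Krt35 and Krt82), named here after their values were seen, while 13.5% of all genes were lower in SmoM2 and 18.7% higher in PKI. Padi3 was at 0.253 to 2.78 CPM in PKI Con and 30.5 to 41.4 CPM in PKI BCC (log2 change 4.82, edgeR adjusted p 0.00133). Hoxc13 alone was at 85.8 to 151 CPM in SmoM2 Con and 46.9 to 62.7 CPM in SmoM2 BCC, a large part of those sums. Which cells of the tail skin carried these markers was not measured. What part the share of such cells has in the S100a3 values was not tested.

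S100a4, known for binding non-muscle myosin, and S100a10, the partner of annexin A2, passed the threshold in no model by edgeR. S100a4 had 35.8, 26.2 and 24.1 CPM in PKI Con and 67.0, 47.9, 39.2 and 29.2 CPM in PKI BCC, where 3 of 4 BCC libraries lay above Con (log2 change 0.69, SE 0.28, edgeR adjusted p 0.0984). Without PKI BCC replicate 4, the lowest, it passed (0.85, edgeR adjusted p 0.0264), as it did with the DESeq2 Wald test of all libraries (adjusted p 0.0250). In SmoM2 and Gnas-eKO its log2 fold changes were −0.46 (edgeR adjusted p 0.198) and 0.21 (edgeR adjusted p 0.619). S100a4 is also abundant in fibroblasts, and the 5 fibroblast markers (Col1a1, Col3a1, Pdgfra, Dcn and Lum) summed to 14.7 to 38.7 CPM in PKI Con and 78.8 to 132 CPM in PKI BCC, with 3 of 5 called higher, beside 18.7% of all genes. In Gnas-eKO the sums were 15.0 to 25.7 CPM in Con and 83.9 to 575 CPM in BCC, with 1 of 5 called, beside 1.63% of all genes. In SmoM2 they summed to 15.7 to 36.5 CPM in Con and 369 to 504 CPM in BCC, where 1 of 5 was called higher, near the 16.2% of all genes, and Dcn alone made up 363 to 499.7 CPM of the BCC sum. Dcn also made up most of the BCC sum in PKI, at 61.7 to 119.6 CPM, and in Gnas-eKO, at 55.7 to 568.7 CPM. What part fibroblasts have in the S100a4 values was not tested. S100a10 had log2 fold changes of −0.08 (SE 0.17), 0.19 (SE 0.25) and −0.06 (SE 0.11) in SmoM2, Gnas-eKO and PKI. Its libraries ranged from 135 to 272 CPM.

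Counted over the family, 4 of 9 members were called in SmoM2 (edgeR), 2 higher and 2 lower. Of all genes tested there, 29.7% were called, 16.2% higher and 13.5% lower. The 2 members without overlap above Con and the 2 below it compare with 19.7% and 19.2% of all genes. In PKI 4 of 9 members were called, all higher, against 34.5% of all genes, with 18.7% higher and 15.8% lower. The 4 lay without overlap above Con, as did 22.4% of all genes. In Gnas-eKO 0 of 9 were called by edgeR and 1.63% of all genes were. At an unadjusted p under 0.05, 3 members and 3212 genes passed there, and the DESeq2 Wald test called 2 members and also more genes in all, as given at the end. Groups overlapped in all 9 members in Gnas-eKO, while 19.8% of all genes did not overlap. The median log2 change of the 9 members was −0.08 for SmoM2, 0.21 for Gnas-eKO and 0.69 for PKI, beside 0.00, 0.02 and −0.00 over all genes tested.

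**Figure D3:**
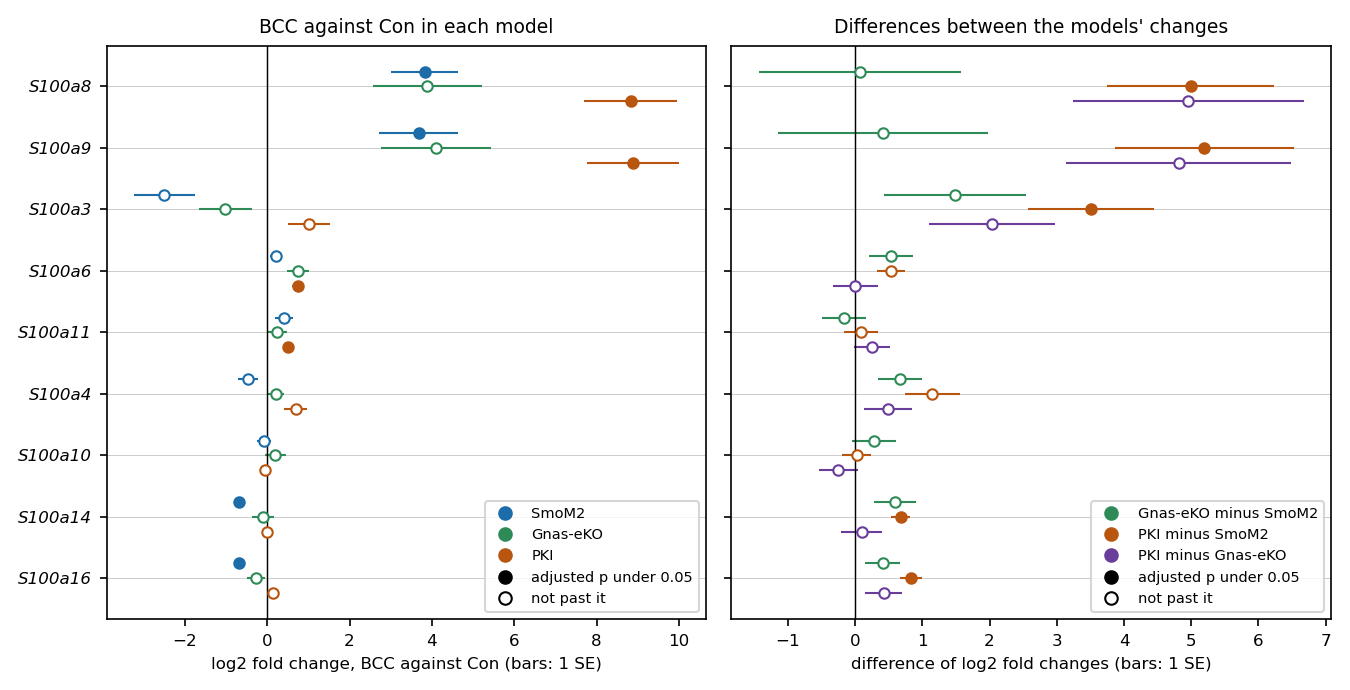
Left, log2 fold changes of the 9 S100 genes between BCC and Con in each model. Right, differences of these log2 fold changes between pairs of models. Points are edgeR estimates with bars of 1 SE, filled where the adjusted p was under 0.05. S100a8 and S100a9 lie at 8.82 and 8.88 in PKI, and 5 genes have a filled point for PKI minus SmoM2.

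The differences between models were then tested as interaction contrasts over the 14 libraries of each pair. Those against SmoM2 also carry the difference in header prefix between SmoM2 BCC and Con. For PKI against SmoM2, 5 of 9 members differed, all with the higher log2 fold change in PKI, while 24.9% of all genes differed and 12.6% were higher. The difference on the log2 scale was 4.99 for S100a8 (SE 1.24, edgeR adjusted p 0.0148) and 5.19 for S100a9 (SE 1.33, edgeR adjusted p 0.0173). For S100a14 it was 0.68 (SE 0.15, edgeR adjusted p 0.00422) and for S100a16 0.83 (SE 0.17, edgeR adjusted p 0.00306), which set the lower level in SmoM2 BCC against the values in PKI. For S100a3 it was 3.51 (SE 0.94, edgeR adjusted p 0.0207). Single Con libraries moved the first 2 values: without SmoM2 Con replicate 1 they were 3.92 and 3.84, and without PKI Con replicate 1 6.94 and 6.61, each still past the threshold. The S100a3 call was lost without SmoM2 Con replicate 3 or PKI Con replicate 2 (2.60 and 3.37, edgeR adjusted p 0.0527 each), and its difference was 4.26 without PKI Con replicate 1. The S100a14 call was lost in the joint fit of all libraries (0.68, edgeR adjusted p 0.0992). S100a4 differed by 1.15 (SE 0.41, edgeR adjusted p 0.0580) and S100a6 by 0.53 (SE 0.21, edgeR adjusted p 0.0838). Without PKI BCC replicate 4 both passed, at 1.32 (edgeR adjusted p 0.0228) and 0.63 (edgeR adjusted p 0.0394), and S100a4 also passed without SmoM2 Con replicate 2 (1.36, edgeR adjusted p 0.0352), with the DESeq2 Wald test (adjusted p 0.0125) and in the joint fit (edgeR adjusted p 0.0414).

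For PKI against Gnas-eKO, edgeR called 0 of 9 members and 9.06% of all genes, with 2 members (S100a8 and S100a9) and 4363 genes at an unadjusted p under 0.05. The differences were 4.96 for S100a8 (SE 1.72, edgeR adjusted p 0.0976) and 4.81 for S100a9 (SE 1.68, edgeR adjusted p 0.0997). The DESeq2 Wald test called both. Without Gnas-eKO BCC replicate 3, the library highest in most members, S100a8 (6.40), S100a9 (6.13) and S100a16 (0.66) passed, with edgeR adjusted p of 0.0232, 0.0292 and 0.0351. For Gnas-eKO against SmoM2, edgeR called 0 of 9 members and 0.175% of all genes. The DESeq2 Wald test called 0 members there as well. An unadjusted p under 0.05 was reached by 1499 genes and 0 members. The difference for S100a8 was 0.07 with an SE of 1.51, so with this spread only a much larger difference could have been detected.

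Other genes of the same pathways were read from lists. Of 9 other S100 genes, 7 have a row, and 4, 4 and 3 were tested in SmoM2, Gnas-eKO and PKI. S100a7a, an antimicrobial relative, was called in PKI, at 0.964 ± 0.155 CPM in Con (SD, n = 3) and 2.37 ± 0.879 in BCC (SD, n = 4), a log2 change of 1.31 (edgeR adjusted p 0.0178). It did not pass without PKI Con replicate 1 or replicate 3 (edgeR adjusted p 0.0560 and 0.0656). None of the others was called in a model by edgeR.

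The S100 fused-type genes carry an S100 domain at the start of a long repeat protein of the cornified layer or the hair follicle, and they lie in the same stretch of chromosome 3. In PKI 3 of 7 were higher and 1 lower, beside 18.7% and 15.8% of all genes. Crnn, which encodes cornulin, went from 1.60 ± 1.12 to 32.2 ± 6.31 CPM (log2 change 4.30, edgeR adjusted p 0.000271). Tchh, which encodes trichohyalin of the inner root sheath, went from 36.3 ± 31.9 to 640.1 ± 131 CPM (4.15, edgeR adjusted p 0.00457), and its relative Tchhl1, named after its value was seen, was higher too (2.17, edgeR adjusted p 0.0266). Tchhl1, at 0.0633 to 0.506 CPM in PKI Con, entered the test through its BCC libraries and could hardly have been called lower. Of the hair shaft and cuticle markers, 4 of 8 were higher in PKI as well, and their part in the Tchh value was not tested. Hrnr, which encodes hornerin of the cornified layer, fell from 491 ± 175 to 73.6 ± 28.6 CPM (−2.72, edgeR adjusted p 0.00304). In SmoM2, 1 of 6 tested was called, near the 13.5% of all genes that were lower. It was Flg2, a filaggrin relative, lower from 35.6 ± 18.0 to 6.37 ± 3.68 CPM (−2.47, edgeR adjusted p 0.0268), which passed in 2 of 7 fits that left out 1 library. In Gnas-eKO 0 of 6 were called, beside 1.63% of all genes, and 2 were without BCC replicate 2. The number of all genes called in Gnas-eKO also moved with the library left out, as given at the end. Median log2 fold changes of the list were −1.23, 0.84 and 1.25 in SmoM2, Gnas-eKO and PKI.

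**Figure D4:**
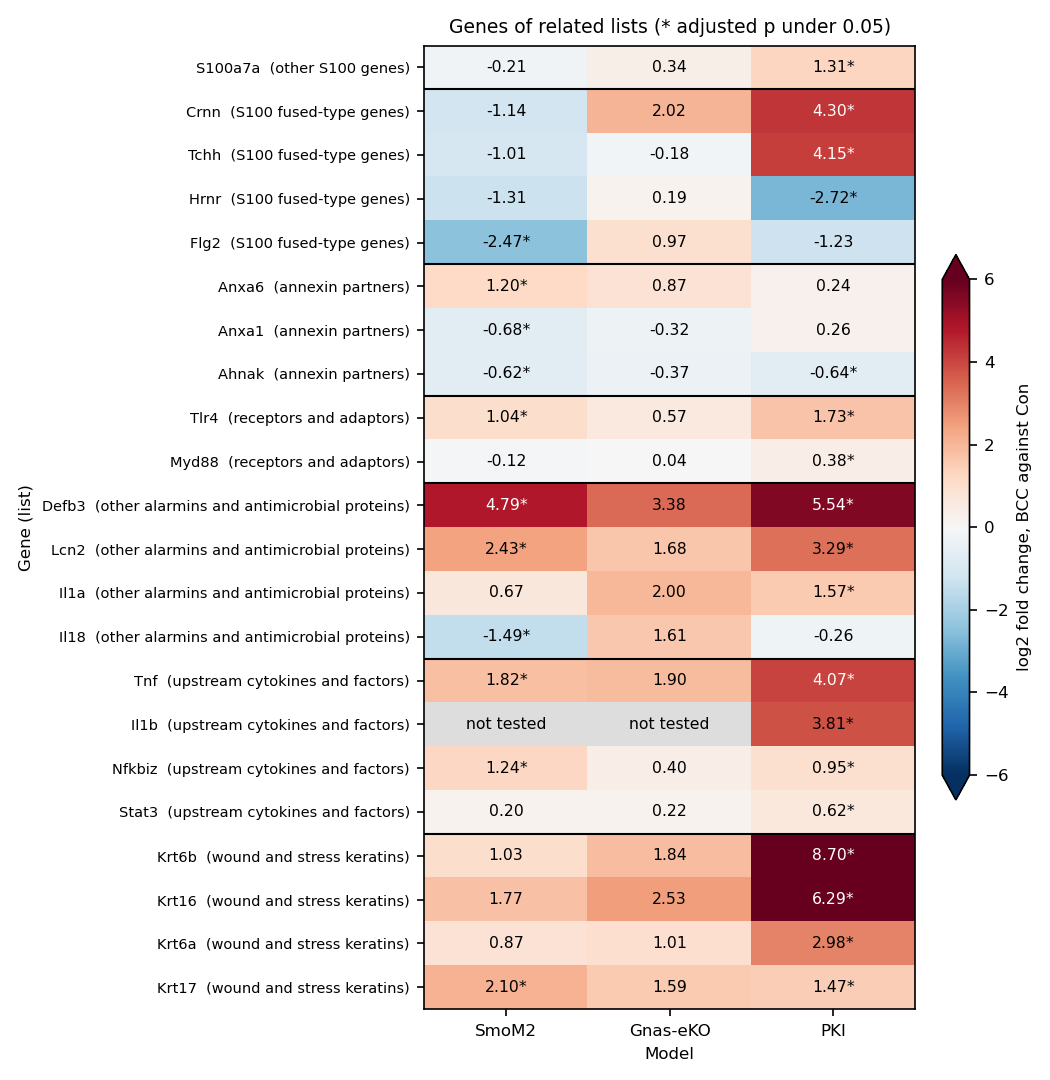
Log2 fold changes (BCC against Con) of the named genes of 7 related lists in the 3 models. Colours run from blue (lower in BCC) to red (higher), and stars mark an edgeR adjusted p under 0.05. The PKI column holds the largest values, 8.70 for Krt6b and 6.29 for Krt16, and the Gnas-eKO column holds no star.

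Annexins and Ahnak bind S100 proteins at membranes. In SmoM2, 2 of 5 were lower and 1 higher, beside 13.5% and 16.2% of all genes. Anxa1, a partner of S100a11, went from 776 ± 48.0 to 479 ± 65.4 CPM (log2 change −0.68, edgeR adjusted p 0.000970), the scaffold gene Ahnak from 2119 ± 90.1 to 1369 ± 119 CPM (−0.62, edgeR adjusted p 0.000398), and Anxa6 from 12.4 ± 2.29 to 28.3 ± 6.90 CPM (1.20, edgeR adjusted p 0.00258). In PKI 1 of 5 was called, near the 15.8% of all genes that were lower. It was Ahnak (−0.64, edgeR adjusted p 0.0193), which did not pass without Con replicate 2 or replicate 3. In Gnas-eKO 0 of 5 were called. Anxa1 had a log2 change of 0.26 in PKI (edgeR adjusted p 0.0875), where S100a11 was higher.

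Of 7 receptor and adaptor genes of extracellular calprotectin, 1 was higher in SmoM2 and 2 in PKI, beside 16.2% and 18.7% of all genes, and Tlr4 was called in both. It was low, at 1.61 ± 0.776 CPM in PKI Con and 5.36 ± 0.944 CPM in PKI BCC (log2 change 1.73, edgeR adjusted p 0.00375). In SmoM2 it went from 1.46 ± 0.0484 to 2.97 ± 1.01 CPM (1.04, edgeR adjusted p 0.0271), a call that passed in 2 of 7 fits that left out 1 library. Myd88, the adaptor of Tlr4, was higher in PKI (0.38, edgeR adjusted p 0.0172) but not without Con replicate 1 or replicate 3. In PKI 4 of 6 macrophage and 4 of 4 Langerhans and dendritic markers were higher too, and their part in the Tlr4 and Myd88 values was not tested. Ager, the other receptor gene, was not called in a model. In Gnas-eKO 0 of 7 were called by edgeR, beside 1.63% of all genes, against 1 by the DESeq2 Wald test, which also called more genes in all.

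Of 10 other alarmins and antimicrobial proteins tested, 4 were higher and 1 lower in PKI, beside 18.7% and 15.8% of all genes. Lcn2, the iron-trapping lipocalin, went from 2.72 ± 0.697 to 26.2 ± 11.4 CPM (log2 change 3.29, edgeR adjusted p 0.000814), and Il1a from 1.99 ± 0.729 to 5.93 ± 1.49 CPM (1.57, edgeR adjusted p 0.00453, and 0.0691 in the joint fit). Defb3, a beta-defensin, had 0.0633 ± 0.110 CPM in PKI Con, under the floor of 3 counts, and 2.98 ± 1.82 CPM in BCC (5.54, edgeR adjusted p 0.00453, a fold that depends on the prior count). Defb3 entered the PKI test through its BCC libraries, so it could hardly have been called lower. The alarmin Hmgb1 (0.34, edgeR adjusted p 0.0134) was higher as well, and Lgals3 was lower (−0.45, edgeR adjusted p 0.0111). In SmoM2, 2 of 10 were higher, near the 16.2% of all genes, and 4 lower, beside 13.5%. Lcn2 (2.43, edgeR adjusted p 0.0356) and Defb3 (4.79, edgeR adjusted p 0.0431) were higher, passing in 3 and 2 of 7 fits that left out 1 library, and Il18 was lower (−1.49, edgeR adjusted p 0.0326), passing in 2 of 7. The other 3 lower genes were Il33 (−0.70, edgeR adjusted p 0.0468), Lgals3 (−0.94, edgeR adjusted p 7.86e-06) and Defb1 (−1.15, edgeR adjusted p 0.0106). Hmgb1, Il33, Lgals3 and Defb1 are named after their values were seen. In Gnas-eKO 0 of 10 were called by edgeR, beside 1.63% of all genes. The DESeq2 Wald test called 5, and edgeR without BCC replicate 2 called 6. The number of all genes called also moved with the test and the library left out, as given at the end. The median log2 fold changes of the list were 0.42, 1.30 and 0.40.

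Cytokines and factors known to raise S100a8 and S100a9 in keratinocytes were mostly low where they had a row. Of 12 listed, 9 have a row, and 4, 4 and 5 were tested in SmoM2, Gnas-eKO and PKI. Il36a, Il36b and Il36g have none under these symbols. Other symbols were not sought, so their levels are unknown here. In PKI 4 of 5 were higher, beside 18.7% of all genes. Of these, Il1b and Tnf were at most 0.202 and 0.253 CPM in PKI Con, so they entered the test through their BCC libraries. They could hardly have been called lower, so the filter partly sets this count. Tnf went from 0.167 ± 0.0748 to 2.95 ± 0.760 CPM (log2 change 4.07, edgeR adjusted p 0.000249), Il1b from 0.110 ± 0.102 to 1.67 ± 1.38 CPM (3.81, edgeR adjusted p 0.0112), and Stat3 from 243 ± 27.6 to 371 ± 24.9 CPM (0.62, edgeR adjusted p 0.00135). The mean levels of Tnf and Il1b in PKI Con were about those of 3 counts or less, so their fitted folds depend on the prior count. Nfkbiz, an NF-kB regulator, was also higher (0.95, edgeR adjusted p 0.0427), and passed in 3 of 7 fits that left out 1 library. In PKI 4 of 6 macrophage, 4 of 4 Langerhans and dendritic and 2 of 3 T cell markers were higher as well, and their part in these values was not tested. In SmoM2, 2 of 4 were higher, beside 16.2% of all genes, namely Nfkbiz (1.24, edgeR adjusted p 0.00858) and Tnf (1.82, edgeR adjusted p 0.0245, not without Con replicate 1 or replicate 2). In Gnas-eKO edgeR called 0 of 4 and the DESeq2 Wald test 0 of 4.

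The keratins of wounded and stressed epidermis rose with calprotectin in PKI, where 4 of 4 were higher, beside 18.7% of all genes. Krt6b went from 6.20 ± 2.08 to 2542 ± 1284 CPM (log2 change 8.70, edgeR adjusted p 0.000356) and Krt16 from 62.1 ± 15.5 to 4817 ± 1736 CPM (6.29, edgeR adjusted p 0.000141). Krt6a changed by 2.98 and Krt17 by 1.47 there (edgeR adjusted p 0.000348 and 0.00861). In SmoM2 Krt17 alone was called of the 4 (2.10, edgeR adjusted p 3.56e-06), beside 16.2% of all genes that were higher. Krt16 (1.77, edgeR adjusted p 0.0575) and Krt6b (1.03, edgeR adjusted p 0.415) were not called there. In Gnas-eKO edgeR called 0 of 4, beside 1.63% of all genes, the DESeq2 Wald test 3, and edgeR without BCC replicate 2 all 4. These 2 alternatives also changed the number of all genes called, a number that moved widely with the processing, as given at the end. Krt6a and Krt6b are near-identical to each other, so how their counts are split is uncertain.

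Across all 21 libraries, the genes whose log2 CPM was most like that of each member were named from the 12029 genes whose log2 CPM averaged 2 or more. These correlations describe libraries that share groups, batches and depth. After S100a9, S100a8 was most like Ifitm2 (Pearson r 0.917, Spearman rho 0.910) and Zc3h12a (r 0.913, rho 0.816), and S100a9 was most like Ifitm2 (r 0.922, rho 0.922) and Serpinb1a (r 0.913, rho 0.908). Ranked by rho, Stom and Krt16 came next to both (rho 0.955 to 0.978). The rho ranking kept 0 of the 3 genes named for S100a4, 2 of 3 for S100a16 and S100a3, and 1 of 3 for each of the other 6 members. S100a14 was most like Rab11a (r 0.950), S100a16 (r 0.937) and Pdzd11 (r 0.928), and S100a16 like Dstn (r 0.954), Mrpl17 (r 0.948) and Ormdl2 (r 0.945). S100a11 was most like its own near copy Gm12854 (r 0.978), then Glmp (r 0.887) and Aldoa (r 0.818).

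S100a3 was most like Csnk1a1 (r 0.907), Prr9 (r 0.903), also on chromosome 3, and Slc9a3r1 (r 0.879). S100a6 was most like Gm5526 (r 0.934), Pfdn4 (r 0.931) and Gm12696 (r 0.930). S100a10 was most like Mgst3 (r 0.895), and its next genes Dnajc15 and Hmgn3 were at r 0.798 and 0.796. S100a4 was most like Pdhb (r 0.828), Plekha1 (r 0.809) and Sprr2a3 (r 0.798). Among the members themselves, S100a16 and S100a14 had an r of 0.937, S100a16 and S100a3 0.83, S100a9 and S100a6 0.755, S100a6 and S100a11 0.734, S100a8 and S100a6 0.732, and S100a14 and S100a3 0.721. For S100a8 and S100a14 the r was −0.200.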

How the data were processed

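The authors deposited a table of estimated counts per gene and, beside it, a normalized signal per gene and library, which was used for 1 alternative only. Per the submitters' processing notes, bcl2fastq 2.20, cutadapt 1.18, STAR 2.7.0f and Partek were used with build mm10, and per the labels' protocols the libraries were stranded mRNA preparations. How reads shared by near-identical genes were counted, and whether strand was used, is not given in the sources used here. Of the deposited estimated counts, 32.3% were not whole (tolerance 1e-06), and they were rounded before testing. Library totals were 16645858 to 22251132 counts, and 3 counts corresponded to at most 0.190 CPM, a floor that covers counting error only.

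Each model's 7 libraries were fitted with edgeR 4.0.16 (robust quasi-likelihood test, TMM scaling, filterByExpr by group) in R 4.3.3, and Benjamini-Hochberg adjustment ran over all genes tested, with calls at an adjusted p under 0.05. Differences between models were interaction contrasts over 14 libraries. Alternatives were DESeq2 1.42.0 (size factors, and its Wald test), no filter, a joint fit of all 21 libraries, a replicate block, limma 3.58.1 on log2 of the authors' normalized signal plus a pseudocount of 1, and leaving out each library. The edgeR step was also run on simulated data, whose outcome is not given here and supports none of the results. No 2 libraries of a group agreed within sampling noise. The headers give each library a code of its own, read here as an animal name, and p-values measure the spread between these libraries alone.

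The members and lists were chosen with earlier results of these data known. Named from the lists are the genes called in at least 1 model, or the 4 with the largest log2 fold change where more were called, and for likeness the 3 genes with the highest Pearson r per member.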

Additional observations from a re-analysis of the deposited data

Results flagged for a closer look

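Within groups of 4 BCC libraries, 27 combinations of gene and model were checked for a library far from the others, and 1 stood apart. S100a14 in Gnas-eKO BCC replicate 3 was at 888 CPM, while the other 3 BCC libraries of that model were at 392 to 468 CPM, and the gap was 0.846 of the group's range. Chance marks about 1 in 20 such groups. The same library was also the highest of its group in S100a8, S100a9, S100a4, S100a6, S100a10 and S100a16.

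The change between Con and BCC differed between PKI and SmoM2 in 5 members by the edgeR test of the difference itself. The difference was 4.99 for S100a8 (adjusted p 0.0148), 5.19 for S100a9 (adjusted p 0.0173), 3.51 for S100a3 (adjusted p 0.0207), 0.83 for S100a16 (adjusted p 0.00306) and 0.68 for S100a14 (adjusted p 0.00422), on the log2 scale and with PKI higher in each. Model, batch and day of collection cannot be told apart in these differences. The differences also carry the SmoM2 change, where the header prefix differs between BCC and Con.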

How the results depend on the processing

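The number of genes called in Gnas-eKO was 267 and depended most on the processing: it was 1535 with the DESeq2 Wald test, 2644 in the joint fit, 135 with the replicate block and 0 to 1910 when 1 library was left out. Members called there were 0, but 2 with DESeq2, 3 in the joint fit and 0 to 2 with a library left out. The difference between Gnas-eKO and SmoM2 had 30 genes, against 212 with DESeq2, 66 in the joint fit, 48 with limma and 14 to 79 with a library left out, and its members stayed at 0. The difference between PKI and Gnas-eKO had 1564 genes, against 2389 with DESeq2, 925 with the replicate block and 673 to 2512 with a library left out, and its 0 members became 2 with DESeq2, 2 with the replicate block and 0 to 3 with a library left out. Leaving out 1 library gave 3613 to 4627 genes and 2 to 5 members in SmoM2, 4057 to 5466 genes and 4 to 5 members in PKI, and 3401 to 4429 genes and 4 to 7 members for PKI against SmoM2. The cause of these shifts was not tested.

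The replicate numbers do not pair the libraries, since same-numbered libraries had a mean correlation of −0.113 for SmoM2, 0.108 for Gnas-eKO and 0.136 for PKI. With the replicate block, S100a8 and S100a9 did not pass in SmoM2 (adjusted p 0.117 and 0.159) or for PKI against SmoM2 (0.0786 and 0.0852), S100a4 passed in PKI (0.000440) and for PKI against SmoM2 (0.0336), S100a3 passed in SmoM2 (0.00295), S100a8 and S100a9 passed for PKI against Gnas-eKO (6.45 and 6.18, adjusted p 0.0333 and 0.0291), and Tchh did not pass in PKI (0.0529). Of the other named list genes, Flg2, Tlr4, Defb3, Lcn2 and Il18 in SmoM2 and S100a7a, Il1a and Nfkbiz in PKI each lost their call in at least 1 alternative fit of all libraries.

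Signs turned in values near 0: Tchh in Gnas-eKO was 0.13 with the replicate block, Hrnr there −0.018 with limma, S100a14 in PKI 0.000269 with the replicate block, and S100a6 for PKI against Gnas-eKO −0.0037 in the joint fit. For Gnas-eKO against SmoM2, S100a8 was −1.19 with the replicate block and −1.14 with limma, and S100a9 −0.84 and −0.75.

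With 1 library left out, signs turned in these ranges. In SmoM2, S100a10 was −0.20 to 0.047, S100a7a −1.18 to 0.089 and Il1a −0.045 to 1.17. In Gnas-eKO, S100a10 was −0.038 to 0.32, S100a14 −0.43 to 0.035, Tchh −0.53 to 0.35, Hrnr −0.38 to 0.41 and Myd88 −0.016 to 0.083. In PKI, S100a10 was −0.19 to 0.043 and S100a14 −0.079 to 0.042. For Gnas-eKO against SmoM2, S100a8 was −1.38 to 0.78, S100a9 −0.94 to 0.90 and S100a11 −0.30 to 0.051. For PKI against SmoM2, S100a10 was −0.11 to 0.14 and S100a11 −0.050 to 0.30, and for PKI against Gnas-eKO, S100a6 was −0.15 to 0.25 and S100a14 −0.044 to 0.42.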
